A study of Mus musculus with 8 samples.

Results

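The genes described here are 10 members of the insulin and insulin-like growth factor (IGF) system: the ligand gene Igf1, the receptor genes Igf1r and Insr, the receptor substrate genes Irs1 and Irs2, and the binding protein genes Igfbp2, Igfbp3, Igfbp4, Igfbp5 and Igfbp7. They were taken by symbol from a table of 48440 entries. All 10 had enough counts to be among the 13771 genes tested. RNA came from purified cardiomyocytes of mouse pups of the C57BL6/J strain at postnatal day 2, and the labels name no transgene, deletion, treatment or agent in any sample. The 8 libraries were 4 males and 4 females, 1 of each from each of 4 litters, so that sex and litter can both be compared. The labels do not say how the cells were purified. The sample labels used here hold no day or batch of preparation either, so differences between litters cannot be told apart from differences in preparation.

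IGF1, IGF2 and insulin bind receptor tyrosine kinases, and the occupied receptor phosphorylates the insulin receptor substrates. The substrates recruit PI3 kinase, which activates Akt, and Akt acts on mTOR, on FoxO transcription factors and on glucose uptake. IGF-binding proteins hold IGFs outside the cell and lengthen or restrict their action, while proteases such as PAPP-A cut the binding proteins and free the ligand. In the heart this pathway is known for its part in growth of the cardiomyocyte and in its use of glucose.

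Total counts per library ranged from 14226342 in the female of litter 3 to 24910243 in the male of litter 1. The labelled cell type was checked on 12 cardiomyocyte markers, among them Myh6, Tnnt2 and Actc1, whose summed level was 70254 to 92801 CPM (counts scaled to a library total of 1e+06, with TMM factors). Other cells were present at low levels: 12 fibroblast markers summed to 46.0 to 292 CPM, 12 endothelial markers to 24.0 to 214 CPM, and 10 macrophage markers to 5.88 to 10.3 CPM. The 10 mural markers, which include the smooth muscle genes Acta2 and Tagln, summed to 908 to 1539 CPM. The 7 erythroid markers summed to 98.6 to 532 CPM, highest in the male of litter 3, with 2 of 6 tested higher in litter 3 (5 without its female), and the 9 epicardial markers to 22.2 to 30.0 CPM. The part of erythroid RNA in the litter 3 results was not tested. No marker of these lists was at 0 in all libraries, and Adgre1, C1qc, Ptprc and Fcgr3 of the macrophage list had at most 3 counts in any library. The libraries of litter 3 stood apart from the rest: 28.3% of all tested genes differed between litter 3 and the mean of the other litters. The female of litter 3 was also the shallowest library, and member results on litter 3 are given with and without it. A fit without 1 library leaves its litter with a single sample, which is then assumed to vary like the other litters.

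Promoter sequence just before the annotated start was read for the binding protein genes whose levels differed most between litters, Igfbp3, Igfbp4, Igfbp5 and Igfbp7. Sequences are those of RefSeq on GRCm38.p6, which holds the same chromosomes as mm10, and run 5′ to 3′ on the strand of the gene. Each is the 80 bases that end at the base before the start, and capitals mark a TATA-like hexamer.
Igfbp3: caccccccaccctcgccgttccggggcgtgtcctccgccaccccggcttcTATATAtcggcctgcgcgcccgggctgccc
Igfbp4: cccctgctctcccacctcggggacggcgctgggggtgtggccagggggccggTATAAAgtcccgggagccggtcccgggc
Igfbp5: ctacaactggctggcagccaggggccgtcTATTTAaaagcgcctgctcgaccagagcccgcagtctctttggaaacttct
Igfbp7: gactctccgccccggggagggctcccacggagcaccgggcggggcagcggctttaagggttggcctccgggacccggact
These stretches lie at chr11:7213924-7214003 (minus strand), chr11:99041164-99041243 (plus strand), chr1:72874866-72874945 (minus strand) and chr5:77408046-77408125 (minus strand), in that order. Hexamers were searched on both strands, in the members and for the shares over all starts. The matches in capitals read on the strand of the gene. Igfbp3 holds TATATA with its first base 30 bases before the start, a hexamer that 1.88% of all starts hold in this window. Igfbp4 holds TATAAA at 28 bases, which 4.75% of all starts hold. Igfbp5 holds TATTTA at 51 bases, which 3.81% of all starts hold. Igfbp7 holds none of these 3 hexamers, nor do Igf1, Igf1r, Irs1, Irs2 and Igfbp2, while 9% of all 32851 annotated starts hold at least 1 of them in this window.

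The promoters of the substrate genes are shown because both hold a CACGTG hexamer, known as an E-box. Each is the 150 bases before the start, with the hexamer in capitals.
Irs1: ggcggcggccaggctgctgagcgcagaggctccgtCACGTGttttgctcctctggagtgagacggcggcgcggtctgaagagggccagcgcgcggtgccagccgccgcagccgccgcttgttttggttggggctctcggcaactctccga
Irs2: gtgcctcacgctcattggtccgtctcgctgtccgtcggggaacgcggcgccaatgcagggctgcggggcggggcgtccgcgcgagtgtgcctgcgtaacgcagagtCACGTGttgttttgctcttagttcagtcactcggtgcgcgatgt
They lie on the minus strand at chr1:82291440-82291589 and chr8:11008930-11009079. The hexamer begins 115 bases before the start of Irs1 and 44 bases before that of Irs2. It reads the same on both strands and stands in 6.02% of all starts within 250 bases, also in Igfbp2 at 142 bases. The longest runs the 250-base promoters share are 10 bases long. They are gtcacgtgtt, which holds the hexamer, and tgttttgctc, which does not hold all of it. In Irs1 they begin 117 and 111 bases before the start and overlap, with tgttttgctc beginning inside the hexamer. In Irs2 they begin at 46 and 37 bases. Over the 250 bases before the start, GC content was 77.6% for Igf1r, 72.4% for Irs1, 72.8% for Irs2, 73.2% for Igfbp3, 69.2% for Igfbp4 and 74% for Igfbp7. It was 67.2% and 56.4% for the 2 starts of Igfbp2, 58.8% for Igfbp5 and 52.8% for Igf1, beside a median of 52.4% over all starts. These matches of letters are descriptions of the sequence.

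Levels were compared between genes per length of merged annotated exons, as reads per kilobase of exon and per 1e+06 reads. Insr, the insulin receptor gene, was the highest of the members at a mean of 23.0, with a range of 19.7 to 26.9 over the 8 libraries. Igfbp5 followed at 11.5 (6.47 to 21.5). It was below Insr in 7 of 8 libraries, all but the female of litter 2, and above Irs1 in 6 of 8. Irs1 at 7.20 (5.44 to 8.81) stood above Igf1r at 6.56 (5.07 to 9.33) in 7 of 8 libraries. The order of the substrate and ligand genes below them was not separated: Irs2 at 5.51 (3.15 to 8.62) exceeded Igf1 at 5.26 (3.14 to 6.62) in 3 of 8 libraries. Igfbp7 at 3.25 (0.933 to 6.21) and Igfbp4 at 3.18 (1.65 to 4.82) also overlapped, with Igfbp7 the higher in 4 of 8. Igfbp3 at 0.437 (0.110 to 0.977) and Igfbp2 at 0.434 (0.305 to 0.630) were the lowest members, with Igfbp3 the higher in 4 of 8 libraries. Part of this order depends on the length used. With the longest annotated transcript, Igf1r at 9.66 was above Irs1 at 7.20 in 8 of 8 libraries, and Igf1 at 7.39 was above Irs1 in 6 and above Irs2 in 5 of 8.

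**Figure D1:**
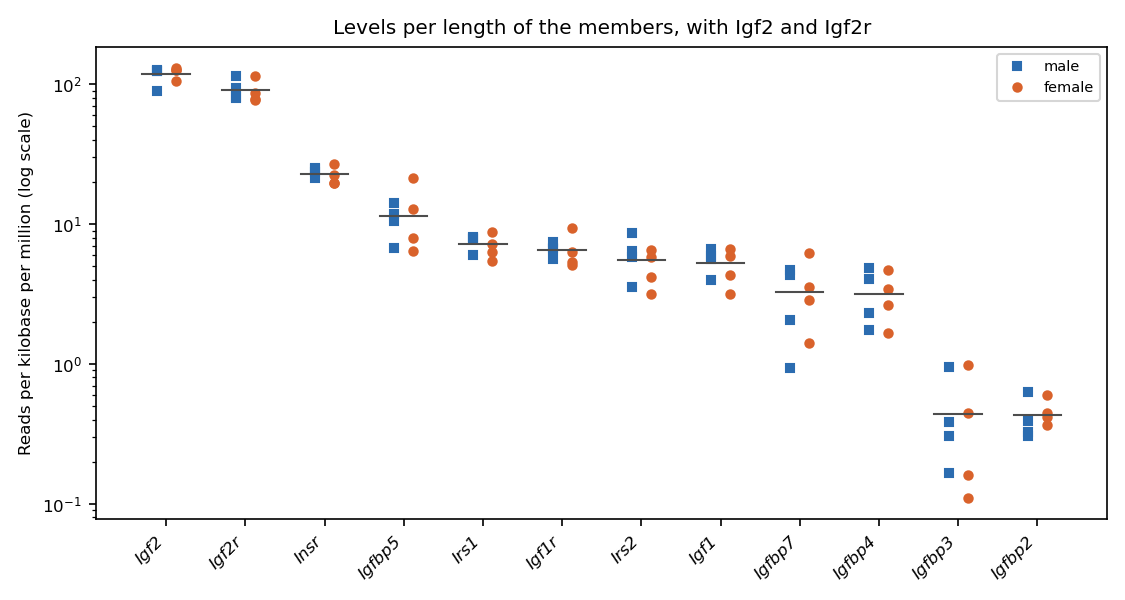
Levels of the 10 member genes with Igf2 and Igf2r beside them, in reads per kilobase of merged exons and per 1e+06 reads on a log scale, where each square is a male library, each circle a female library and each line the mean of 8. Insr lies highest among the members (mean 23.0), and Igfbp3 and Igfbp2 lie lowest (0.437 and 0.434).

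Both receptor genes were found in every library, with Insr above Igf1r throughout. Their ratio per length was 3.56 ± 0.319 (SD, n = 8), from 2.89 in the female of litter 3 to 3.91 in the female of litter 4. Irs1 per length was 1.38 ± 0.267 times Irs2, and the male of litter 2, at 0.919, was the single library in which Irs2 was the higher. Outside the members, Igf2 and the IGF2 scavenger receptor gene Igf2r stood higher than all of them, at means of 119.6 and 91.2 per length. Igf2 exceeded Igf1 by 24.6 ± 8.86 times per length, and Igf2r exceeded Igf1r by 14.1 ± 1.62 times. The level of Igf2 is uncertain, since 64.5% of its exon bases also belong to other annotated genes. The genes of the insulin ligand, Ins1 and Ins2, had 0 counts in all 8 libraries, as had Igfbp1 and Insrr. A count of 0 allows up to 3 counts per library, or 0.120 to 0.206 CPM, and these limits cover counting error only.

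Igf1, the ligand gene on the plus strand at chr10:87858265-87937042, was lower in litter 3 than in the other litters. In litters 1 to 4 it stood at 65.4, 55.9, 39.4 and 58.2 CPM in the males and at 65.5, 58.5, 31.1 and 42.8 CPM in the females. Both libraries of litter 3 were below all 6 others, and both of litter 1 were above all others. By litter, edgeR's quasi-likelihood F test on the 3 litter terms together called 8 of the 10 members at an adjusted p under 0.05, where 32.1% of all genes were called. Igf1 was among them, with fitted litter means spanning 0.90 on the log2 scale (adjusted p = 0.00116). Against the mean of the other litters, Igf1 fell by 0.70 in litter 3 (log2, SE 0.10, edgeR adjusted p = 0.000424). It kept that call in all 14 alternatives tried, including those that left out either litter 3 library. In litter 1 it was higher by 0.49 (SE 0.09, edgeR adjusted p = 0.00474), a call lost without the female of litter 1 (edgeR adjusted p = 0.161) or without litter 3 (0.0814). Without litter 3 the test over litters no longer called Igf1 (edgeR adjusted p = 0.0741).

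Fibroblasts of the heart are known to express Igf1, and fibroblast markers moved with litter too. Their summed level was 68.3 CPM in the male and 46.0 CPM in the female of litter 3, against 135 to 292 CPM in the other 6 libraries. Of the 12 fibroblast markers, 10 were lower in litter 3 (median log2 difference -1.79) and none was higher, and without the female of litter 3 the count was again 10. Within each litter the female had 0.517 to 0.673 times the summed fibroblast level of the male, while Igf1 in the female was 1.00, 1.04, 0.790 and 0.735 times that in the male in litters 1 to 4. Their part in the Igf1 result was not tested. In RNA from whole preparations, fewer cells of a type and less RNA per cell cannot be told apart.

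**Figure D2:**
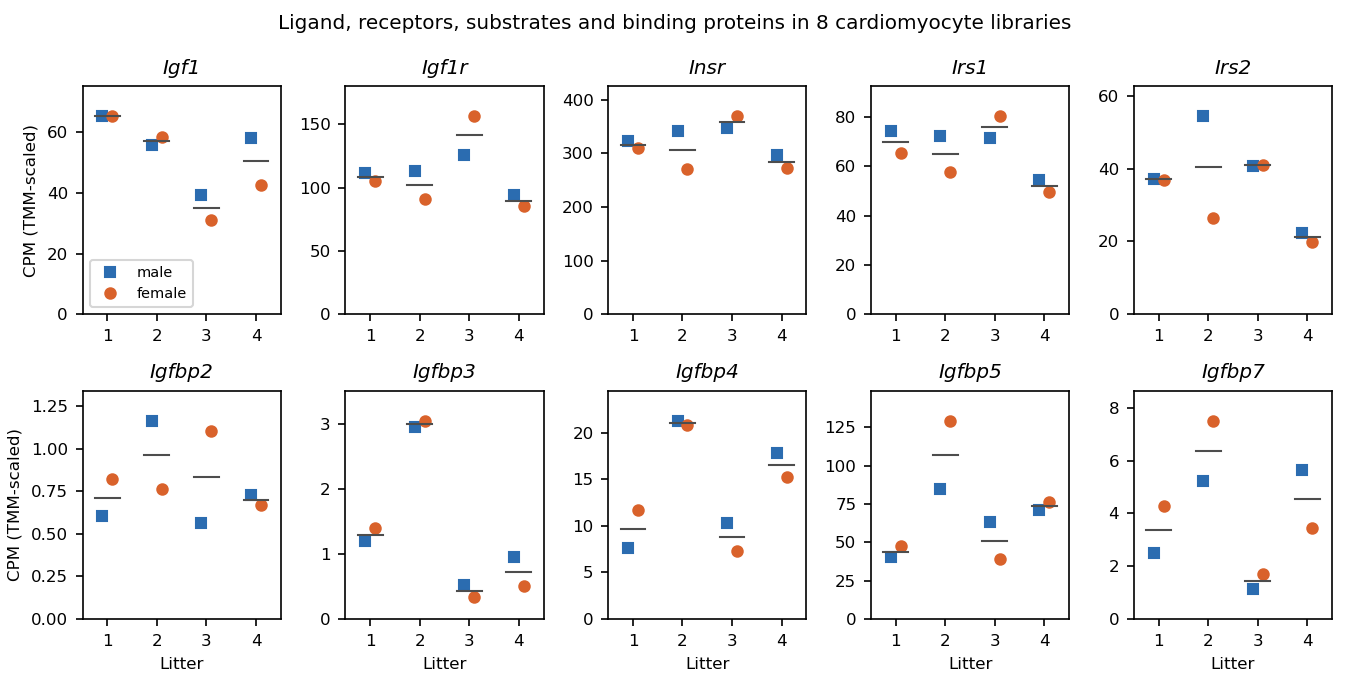
CPM of each of the 10 members in the 8 libraries, by litter, with squares for males, circles for females and a line at the mean of each litter; each panel has its own axis from 0. Igf1 is lowest in litter 3 (39.4 and 31.1 CPM), and Igfbp3 is highest in litter 2 (2.95 and 3.06 CPM).

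Igf1r, the IGF1 receptor gene on the plus strand at chr7:67952827-68233668, was higher in litter 3 and lower in litter 4. It stood at 111, 113, 126 and 94.2 CPM in the males of litters 1 to 4 and at 105, 90.6, 157 and 85.0 CPM in the females. Both litter 3 libraries were above all others, the female by the wider margin. Igf1r differed over litters, with fitted means spanning 0.66 on the log2 scale (edgeR adjusted p = 0.00727, and 0.0912 without litter 3). It was higher in litter 3 by 0.50 (log2, SE 0.09, edgeR adjusted p = 0.0024). Without the female of litter 3 the difference was 0.24 (edgeR adjusted p = 0.112) and was no longer called. In litter 4 it was lower than the mean of the others (log2 difference -0.37, SE 0.10, edgeR adjusted p = 0.0357), a call that 7 of 15 alternatives lost. Among them were the fits without litter 3 (-0.23, edgeR adjusted p = 0.0541), without either litter 4 library, without either litter 1 library and without the male of litter 2, at edgeR adjusted p of 0.0541 to 0.2485.

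Insr, which encodes the insulin receptor on the minus strand at chr8:3122061-3279617, varied less than Igf1r. It stood at 322, 342, 348 and 296 CPM in males and at 310, 271, 370 and 272 CPM in females. Both litter 3 values were above all others, but the male of litter 3 was only just above the male of litter 2. Over litters, Insr missed the threshold (span 0.34, edgeR adjusted p = 0.0532) and passed it in 8 of 18 alternatives, DESeq2 among them (adjusted p = 0.0199). In litter 3 alone it was higher by 0.25 (SE 0.07, edgeR adjusted p = 0.0219), and by 0.12 without the female of litter 3 (edgeR adjusted p = 0.454). That call was also lost without the male of litter 1 (edgeR adjusted p = 0.0523) and in the fit without sex (0.0554).

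The substrate genes were lowest in litter 4. Irs1, which encodes a docking protein for PI3 kinase (minus strand, chr1:82233101-82291416), stood at 74.6, 72.4, 71.6 and 54.6 CPM in males and at 65.5, 57.6, 80.6 and 49.7 CPM in females. Irs2, its relative on the minus strand at chr8:10984681-11008458, stood at 37.1, 54.5, 40.7 and 22.3 CPM in males and at 36.9, 26.4, 41.1 and 19.9 CPM in females. For each gene, both litter 4 libraries were below all 6 others. Irs1 differed over litters by a span of 0.55 (edgeR adjusted p = 0.0108) and Irs2 by 0.95 (edgeR adjusted p = 0.0131). Of the 10 members, 3 were lower in litter 4 than in the mean of the others and none was higher, where 10.5% of all genes differed, 5.8% lower and 4.71% higher. Cell type markers moved in litter 4 too: 9 of 12 fibroblast markers were higher (median log2 difference 0.64), 5 cardiomyocyte markers were higher and 2 lower, and 3 mural markers were higher and 1 lower. Their part in the litter 4 results was not tested. With library totals alone as the scaling, the split over all genes in litter 4 was 262 higher and 1501 lower, against 648 and 799 under TMM. Irs1 had a log2 difference of -0.43 in litter 4 (SE 0.09, edgeR adjusted p = 0.0132), and Irs2 one of -0.89 (SE 0.17, edgeR adjusted p = 0.00989). Neither kept its call when a litter 4 library was left out, though the differences stayed near those sizes. Without the male and the female, Irs1 had -0.44 and -0.42 (edgeR adjusted p = 0.0926 and 0.102) and Irs2 had -0.80 and -0.98 (edgeR adjusted p = 0.11 and 0.0666). The test over litters was also lost without the female of litter 4 for both (edgeR adjusted p = 0.0625 and 0.063), and for Irs2 without the male (0.118) and in DESeq2 (0.1). Without litter 4 the span was 0.24 for Irs1 (edgeR adjusted p = 0.242) and 0.14 for Irs2 (edgeR adjusted p = 0.846).

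In litter 3 the substrate genes overlapped the other litters, with the female of litter 3 the highest of the females for both. Irs1 was higher by 0.30 (SE 0.08, edgeR adjusted p = 0.0203), and by 0.10 without the female of litter 3 (edgeR adjusted p = 0.545). Irs2 had a difference of 0.38 (SE 0.16, edgeR adjusted p = 0.0985) and was not called, though it passed without the male (0.57) or the female (0.24) of litter 2. The difference was 0.38 and also passed when all genes with a count were tested (edgeR adjusted p = 8.4e-05). It was 0.16 without the female of litter 3 (edgeR adjusted p = 0.648). Of the exon bases of Irs1, 30.9% overlap the gene Gm9747 on the opposite strand, which had 0 to 2 counts per library. For Irs2 the overlap was 2.56%, with 9530052E02Rik, at 0 to 6 counts. Whether counting used the strand is not given in the sources used here. Cardiomyocyte markers summed to 71211 and 70254 CPM in litter 3 against 81925 to 92801 CPM elsewhere, with 6 of 12 lower and 1 higher, also without the female of litter 3; their part in the receptor and substrate results was not tested.

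**Figure D3:**
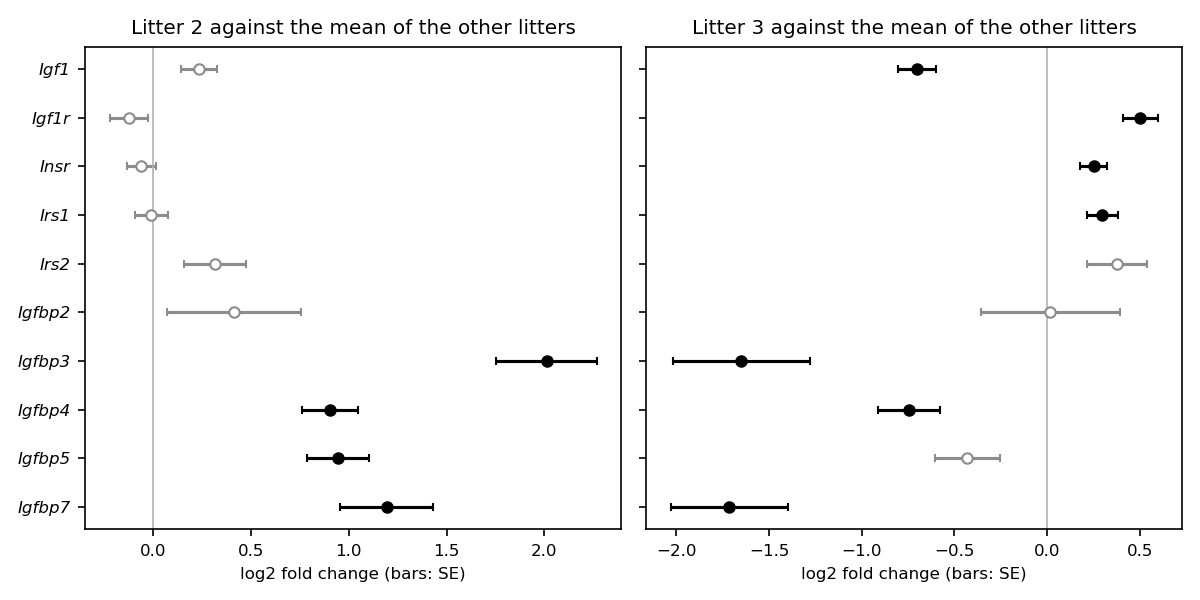
Log2 fold change of each member in litter 2 (left) and litter 3 (right) against the mean of the other litters, with bars of 1 SE; filled points passed an edgeR adjusted p of 0.05 and open points did not. In litter 2 the filled points are Igfbp3, Igfbp4, Igfbp5 and Igfbp7, all to the right of 0, and in litter 3 Igfbp3, Igfbp4 and Igfbp7 lie to the left of it with Igf1.

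The binding protein genes were the members that differed most between litters, apart from Igfbp2. Igfbp3, whose product carries most circulating IGF, lies on the minus strand at chr11:7206086-7213923. It stood at 1.20, 2.95, 0.521 and 0.949 CPM in the males of litters 1 to 4 and at 1.40, 3.06, 0.344 and 0.504 CPM in the females. Both libraries of litter 2 were above all others. The counts behind these levels were 5 to 71 per library, and its fitted litter means spanned 2.74 on the log2 scale (edgeR adjusted p = 0.000801).

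Igfbp4, whose product is a substrate of the protease PAPP-A, lies on the plus strand at chr11:99041244-99054392. It stood at 7.67, 21.3, 10.3 and 17.8 CPM in males and at 11.7, 20.9, 7.29 and 15.3 CPM in females. Both libraries of litter 2 were again above all others, and litters 1 and 3 overlapped at the low end. Igfbp5, whose product also binds extracellular matrix, lies on the minus strand at chr1:72857932-72874884. It stood at 40.2, 84.8, 63.3 and 71.3 CPM in males and at 47.6, 129, 38.9 and 76.5 CPM in females, with both litter 2 libraries highest. The litter means of Igfbp4 spanned 1.24 (edgeR adjusted p = 0.00122) and those of Igfbp5 spanned 1.28 (edgeR adjusted p = 0.00259). Both of these kept the litter call in all 18 alternatives, those without each litter included.

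Igfbp7, which encodes a secreted protein of the vessel wall that binds IGFs weakly, lies on the minus strand at chr5:77349240-77408041. It stood at 2.49, 5.24, 1.13 and 5.64 CPM in males and at 4.28, 7.51, 1.72 and 3.44 CPM in females. Both litter 3 libraries were below all others, and litter 2 overlapped litter 4. Its litter means spanned 2.18 (edgeR adjusted p = 0.00395, and 0.0973 without litter 3). Exons of Igfbp7 share 7.03% of their bases with Polr2b on the opposite strand. Igfbp2, which lies next to Igfbp5 on the plus strand at chr1:72824503-72852474, had 13 to 28 counts per library. Its 8 values ran from 0.564 to 1.16 CPM, and no litter difference was detectable at this depth (edgeR adjusted p = 0.718).

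In litter 2, 4 of the 10 members were higher than the mean of the other litters and none was lower, where 4.18% of all genes differed, 3.3% higher and 0.879% lower. These were the binding protein genes other than Igfbp2. Igfbp3 was higher by 2.01 (SE 0.26, edgeR adjusted p = 0.00106), a call kept in all 14 alternatives. Igfbp4 was higher by 0.90 (SE 0.14, edgeR adjusted p = 0.00391), Igfbp5 by 0.95 (SE 0.16, edgeR adjusted p = 0.00538) and Igfbp7 by 1.19 (SE 0.24, edgeR adjusted p = 0.0151). Without the male of litter 2, Igfbp3 and Igfbp5 were called, and without the female Igfbp3 alone of the 4: the others missed the threshold. Igfbp4 kept a like difference without the male (0.90, edgeR adjusted p = 0.0554) and the female (0.91, edgeR adjusted p = 0.0576). Igfbp5 had 0.57 without the female (edgeR adjusted p = 0.189). Igfbp7 had 1.37 without the male (edgeR adjusted p = 0.0602), 1.00 without the female (edgeR adjusted p = 0.257) and 0.70 without litter 3 (edgeR adjusted p = 0.168). In DESeq2 Igfbp5 missed it as well (adjusted p = 0.0622). In litter 1, 3 members differed, 1 higher and 2 lower, where 13.3% of all genes did, 7.86% higher and 5.41% lower: Igf1 as given above, Igfbp4 at a log2 difference of -0.59 (SE 0.16, edgeR adjusted p = 0.0314) and Igfbp5 at -0.76 (SE 0.18, edgeR adjusted p = 0.0152). The single member called was Igf1 without the male of litter 1 and Igfbp4 without the female. The Igfbp4 difference was -0.21 without that male (edgeR adjusted p = 0.55), and without the male of litter 3 Igfbp4 missed the threshold (edgeR adjusted p = 0.0552). Igfbp5 had -0.66 without the male of litter 1 (edgeR adjusted p = 0.19) and -0.87 without the female (edgeR adjusted p = 0.0828), and also missed the threshold in DESeq2 (adjusted p = 0.11). In litter 1, 3 of 12 fibroblast markers were higher, 1 of 10 mural markers was higher and 2 lower, and 4 of 12 cardiomyocyte markers were higher and 1 lower. Their part in the litter 1 results was not tested.

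In litter 3, 7 of the 10 members differed, 3 higher and 4 lower, where 28.3% of all genes differed, 13.6% higher and 14.8% lower. With library totals alone as the scaling, all genes split into 2419 higher and 1698 lower. The 3 higher members were Igf1r, Insr and Irs1, and the 4 lower were Igf1, Igfbp3, Igfbp4 and Igfbp7. The log2 difference was -1.65 for Igfbp3 (SE 0.37, edgeR adjusted p = 0.00645), -0.74 for Igfbp4 (SE 0.17, edgeR adjusted p = 0.00694) and -1.71 for Igfbp7 (SE 0.32, edgeR adjusted p = 0.00208). The difference of Igfbp5, -0.43 (SE 0.18, edgeR adjusted p = 0.0861), was not called, and was 0.0173 without the female of litter 3 (edgeR adjusted p = 0.946). It passed without the male of litter 3 (-1.01) or the male of litter 2 (-0.56). With all libraries in, it also passed when all genes with a count were tested (-0.43, edgeR adjusted p = 1.8e-06). Without the female of litter 3, only Igf1 and Igfbp7 remained called, where 12.2% of all genes were called. Igfbp3 then had -1.47 (edgeR adjusted p = 0.0705) and Igfbp4 -0.50 (edgeR adjusted p = 0.115). The 4 comparisons of 1 litter with the rest share libraries and are not independent.

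Endothelial and mural cells are known to express several of the binding protein genes, and their markers also differed between litters. In litter 2, all 12 endothelial markers were higher (median log2 difference 2.15), and so were 9 of 12 fibroblast and 5 of 10 mural markers. The endothelial sum was 115 CPM in the male and 214 CPM in the female of litter 2, against 24.0 to 87.6 CPM in the other 6 libraries. In litter 3, 9 of 12 endothelial markers were lower (median -1.46), of which 1 was called without the female of litter 3, and 6 of 10 mural markers were lower (median -1.26), again 6 without it. The male of litter 1 had an endothelial sum of 24.0 CPM, as low as litter 3 at 24.7 and 27.1 CPM. Its Igfbp3 level was 1.20 CPM, above both litter 3 libraries (0.521 and 0.344 CPM). Its Igfbp7 level was 2.49 CPM, also above both (1.13 and 1.72 CPM). Igfbp4 in this male was 7.67 CPM (litter 3 at 10.3 and 7.29 CPM) and Igfbp5 was 40.2 CPM (63.3 and 38.9 CPM). Within litters 1 to 4 the female had 3.66, 1.86, 1.10 and 0.713 times the endothelial sum of the male. The same ratios were 1.16, 1.04, 0.661 and 0.531 for Igfbp3 and 1.72, 1.43, 1.52 and 0.610 for Igfbp7. They were 1.52, 0.98, 0.709 and 0.858 for Igfbp4 and 1.18, 1.52, 0.615 and 1.07 for Igfbp5. The part of these cells in the binding protein results was not tested.

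**Figure D4:**
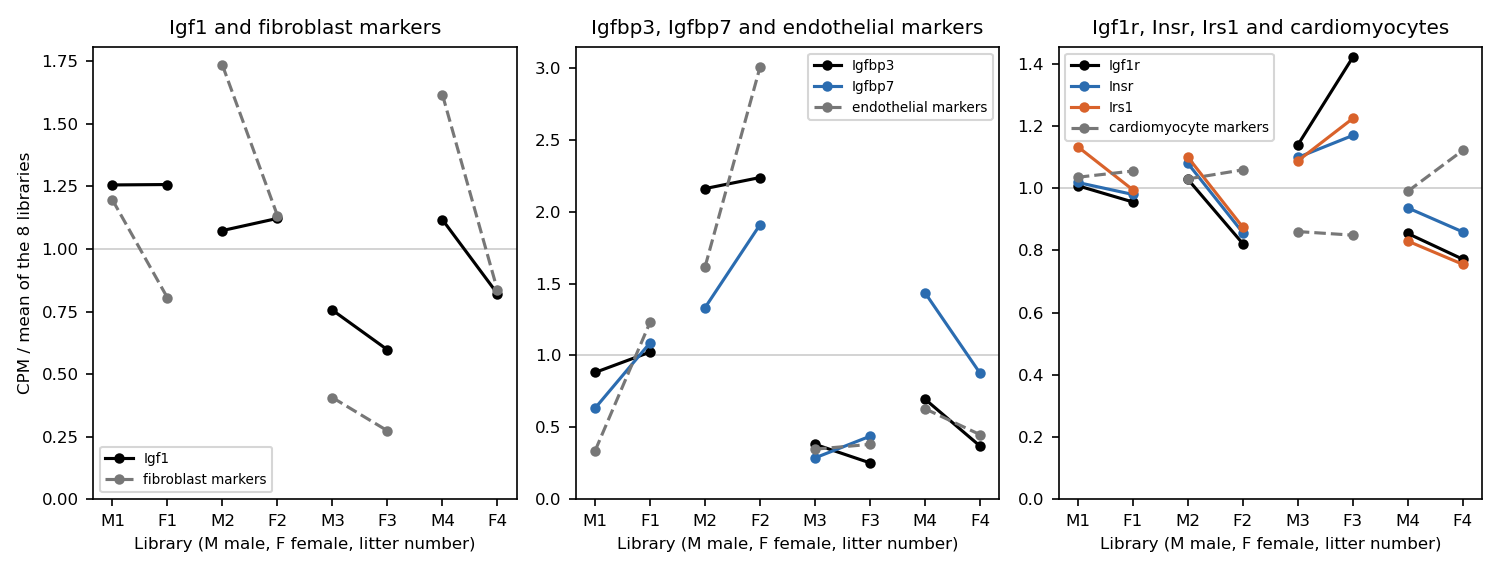
CPM of members (solid lines) and summed CPM of cell type markers (dashed lines), each divided by its mean over the 8 libraries, where a line joins the male (M) and the female (F) of a litter. In the middle panel Igfbp3, Igfbp7 and the endothelial markers are all above 1 in both libraries of litter 2 and below 1 in both of litter 3. In litter 1 all are higher in the female, by 3.66 times for the endothelial markers, 1.72 times for Igfbp7 and 1.16 times for Igfbp3.

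For the members with litter means at least 1 apart on the log2 scale, the genes with the most similar profiles were taken by the root mean square difference of centred log2 CPM over the 8 libraries. This is a description among 13770 genes with no test. Igfbp3 was nearest to Nr2f2 (0.218), Tnxb (0.223) and Glipr2 (0.224), where its own spread about its mean was 0.998. Igfbp4 was nearest to Colec11 (0.106), Tgfbi (0.149) and Dbn1 (0.151), against its own spread of 0.571. Igfbp5 was nearest to Dbn1 (0.243), Igfbp4 (0.247) and Gm12530 (0.255), so that Dbn1 is among the neighbours of both Igfbp4 and Igfbp5. Igfbp7 was nearest to Cd9 (0.211), Apba1 (0.250) and Aoc3 (0.258). Colec11, Gm12530, Apba1 and Glipr2 had low counts, from 2 to 42 per library.

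Between the sexes, no member was called. The edgeR test of male against female called 0 of 10 members, where 0.0436% of all genes were called. At an unadjusted p under 0.05 there were 0 members in edgeR and 0 in DESeq2, where 2.22% and 2.11% of all genes passed. Means of the 4 males and 4 females differed by less than their spread: for Igf1 the male mean was 54.7 ± 11.0 CPM and the female mean 49.5 ± 15.5 CPM (SD, n = 4 each, and so for the genes that follow). Igf1r had 111 ± 12.9 and 109 ± 32.6 CPM, and Insr had 327 ± 23.1 and 306 ± 46.5 CPM. Irs1 had 68.3 ± 9.21 and 63.3 ± 13.2 CPM. The largest difference in a substrate gene was that of Irs2, at 38.6 ± 13.2 CPM (male) and 31.1 ± 9.67 CPM (female), a log2 difference of 0.32 (SE 0.27).

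The binding protein genes overlapped between the sexes in the same way. Igfbp3 had a male mean of 1.41 ± 1.07 CPM and a female mean of 1.33 ± 1.24 CPM, and Igfbp4 had 14.3 ± 6.36 and 13.8 ± 5.74 CPM. Igfbp5 had 64.9 ± 18.7 and 73.1 ± 40.8 CPM. Igfbp7 had 3.62 ± 2.18 and 4.24 ± 2.43 CPM, and Igfbp2 had 0.764 ± 0.276 and 0.840 ± 0.185 CPM. The difference male minus female ran from -0.25 (SE 0.51) for Igfbp7 to 0.32 for Irs2, with a median of 0.05 over the members and -0.00081 over all genes. The standard error ran from 0.11 for Insr to 0.67 for Igfbp3. The SDs and standard errors given for the sexes include the spread between litters, which a litter block takes out. With litter as a block, edgeR called 29 genes instead of 6 and again 0 members, with Irs2 nearest at an adjusted p of 0.435. The difference with the block ran from -0.26 for Igfbp7 to 0.31 for Irs2, with standard errors from 0.06 for Insr to 0.31 for Igfbp2. With the block and without litter 3, 5 of 10 members had an unadjusted p under 0.05 in edgeR, where 12.9% of all genes had, and the lowest adjusted p was 0.182.

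Within litters, the male had the higher level of Igf1r, Insr and Irs1 in litters 1, 2 and 4 and the female in litter 3. The female of litter 3 had 1.25 times the Igf1r level of the male, where the other females had 0.799 to 0.948 times. For Irs2 the widest gap within a litter was in litter 2, where the female had 0.485 times the level of the male. Fibroblast markers differed within litters as well: with the litter block, 7 of 12 were higher in males, and the females had 0.517 to 0.673 times the male sum.

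Of 70 further genes of the pathway, listed by their role, 59 had enough counts to be tested. None was called by sex (0 of 59 in edgeR), where 0.0436% of all genes were. At an unadjusted p under 0.05 edgeR had 0 of 59, where 2.22% of all genes passed. With the litter block it had 4 of 59 at that p, where 11.6% of all genes passed. Over litters, 33 of 59 differed, where 32.1% of all genes did. In litter 3, 29 of 59 were called, 22 higher and 7 lower, where 28.3% of all genes were called, with a median log2 difference of 0.12 beside 0.00013 over all genes. Without the female of litter 3, 7 were higher and 3 lower, where 12.2% of all genes were called. In litter 4, where 10.5% of all genes were called, 14 were called, 2 higher and 12 lower, a count of lower genes that was 4 without the male and 3 without the female of litter 4. In litter 1, 3 of 59 passed as higher and 8 as lower, where 13.3% of all genes were called. In litter 2, the counts were 2 and 0, where 4.18% of all genes were called.

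Among ligands and the proteins that process them, 2 of 6 tested genes differed in litter 3, where 28.3% of all genes did. Igf2, the main fetal IGF ligand, had 713 to 729 CPM in the males of litters 2 to 4 and 516 CPM in the male of litter 1, with 603 CPM in the female of litter 1. It was lower in litter 1 (log2 difference -0.38, edgeR adjusted p = 0.00223), and its difference of 0.12 in litter 3 was not called. Pappa, the protease that cuts Igfbp4, was higher in litter 3 by 0.72 (SE 0.21, edgeR adjusted p = 0.0255), at 3.73 and 4.27 CPM against 1.66 to 3.01 CPM elsewhere. Pappa had 0.39 without the female of litter 3 (edgeR adjusted p = 0.397). Stc2, a stanniocalcin that blocks PAPP-A, was lower (log2 difference -0.39, SE 0.11, edgeR adjusted p = 0.018), and kept that call without the female (adjusted p = 0.0284). Its relative Stc1 had a log2 difference of -0.93 and was not called. Ide, the insulin-degrading enzyme, had 0.30 in litter 3, which did not pass, and was lower in litter 1 (log2 difference -0.47, edgeR adjusted p = 0.0357). With the female of litter 3 left out, Igf2 had 0.15, Stc1 -0.73 and Ide 0.0254, none of them called. Igfals and Enpp1 were not called in litter 3 with or without it, and Igfbp6 and Pappa2 had at most 8 counts in any library.

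Igf2r, which takes up IGF2 for breakdown, had 1075 and 1074 CPM in litter 3 against 722 to 879 CPM elsewhere. It was higher in litter 3 by 0.48 (SE 0.05, edgeR adjusted p = 6.9e-05), and by 0.44 without the female (adjusted p = 0.00316). Of 13 tested adaptors and inhibitors at the receptor, 5 were higher in litter 3 and 0 lower, and 2 were higher without the female. The shares over all genes in litter 3 were 13.6% higher and 14.8% lower. Socs3, which inhibits signalling at the receptor, was higher by 1.11 (SE 0.21, edgeR adjusted p = 0.00244), at 13.1 CPM in the male and 6.26 CPM in the female against 3.66 to 5.14 CPM. The docking protein gene Gab1 was higher by 0.33 (SE 0.07, edgeR adjusted p = 0.00472). Without the female of litter 3 Socs3 was still called by edgeR, while Gab1, at 0.30, was not (adjusted p = 0.0643).

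In the PI3 kinase and Akt group, 7 of 13 tested genes differed in litter 3, 5 higher and 2 lower, where 28.3% of all genes differed. The regulatory subunit gene Pik3r1 was higher by 0.38 (SE 0.07, edgeR adjusted p = 0.00283) and the catalytic subunit gene Pik3ca by 0.28 (SE 0.07, edgeR adjusted p = 0.0123). In the fit without the female of litter 3, edgeR called 0 genes of the group, with 5 of 14 at an unadjusted p under 0.05 where 27.3% of all genes were, and the adjusted p was 0.125 for Pik3r1 and 0.279 for Pik3ca. In the mTOR group, 6 of 14 were higher and 1 lower, where 13.6% of all genes were higher and 14.8% lower. The mTOR inhibitor genes Deptor and Ddit4 were higher by 0.81 (SE 0.14, edgeR adjusted p = 0.00172) and 0.72 (SE 0.09, edgeR adjusted p = 0.000163), and the translation repressor gene Eif4ebp2 by 0.42 (SE 0.07, edgeR adjusted p = 0.00152). Ddit4 stood at 34.1 and 37.8 CPM in litter 3 and at 18.3 to 26.0 CPM elsewhere, without overlap. When the female of litter 3 was left out, 3 genes of the group were called and higher, the same 3 that are named here (edgeR adjusted p of 0.0402, 0.00571 and 0.00415).

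Among Akt targets in metabolism and transcription, 7 of 11 tested genes differed in litter 3, 4 higher and 3 lower, and 1 and 2 without the female. Over all genes the share that differed in litter 3 was 28.3%. Hk2, which encodes the hexokinase that phosphorylates glucose, stood at 98.0 and 93.4 CPM in litter 3 against 139 to 187 CPM elsewhere. Its log2 difference was -0.83 (SE 0.07, edgeR adjusted p = 1.4e-05). Slc2a4, the gene of the insulin-responsive glucose transporter GLUT4, stood at 82.0 and 112 CPM in litter 3 against 135 to 153 CPM elsewhere. Its log2 difference was -0.59 (SE 0.08, edgeR adjusted p = 0.000376). Foxo4, a transcription factor gene whose product Akt holds out of the nucleus, was higher by 0.57 (SE 0.06, edgeR adjusted p = 5.3e-05), at 66.2 and 66.3 CPM against 36.7 to 51.6 CPM. These 3 genes were chosen as those with the largest difference in this list, and each was called without the female of litter 3 (edgeR adjusted p of 0.000389, 0.000207 and 0.000792).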

How the data were processed

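Libraries were made from 1 µg of total RNA with a stranded total RNA kit and sequenced as single reads of 100 bases, per the labels, which also call the molecule poly(A) RNA. The authors deposited raw read counts per gene symbol for the 8 libraries, 48440 entries of which 24853 had a count. STAR 2.7.3a and mm10 are named in the submitters' processing notes, while the counting program, the annotation and the strand setting are not given in the sources used here. Depth per library, 14226342 to 24910243 counts, sets the precision.

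Genes were filtered with filterByExpr on sex (13771 kept), scaled with TMM and fitted in edgeR 4.0.16 under R 4.3.3 by the quasi-likelihood F test. The Benjamini-Hochberg adjustment ran over all genes tested, with a threshold of 0.05. Sex was fitted alone, with 6 residual degrees of freedom. Litter was fitted with sex, with 3, by the 3 litter terms together and by each litter against the mean of the other 3. Alternatives were DESeq2 1.42.0, other scalings and filters, the litter block, no sex term, and leaving out each library or litter. The script was tested on simulated data.

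Sample numbers are litter numbers in the labels and pair male with female. After removal of sex means, such pairs correlated across genes at 0.506, 0.503, 0.696 and 0.367, against -0.482 to 0.27 for other pairs. Hearts were separate, with 1 library each.

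Members and gene lists were chosen with earlier results of these data known. All members are named, with every listed ligand, protease, binding protein and receptor gene that had counts or was at 0 throughout, and up to 3 genes of each other pathway list with the largest litter 3 difference past the threshold. Some genes under this rule are not reported here, though the list counts include them. Positions and lengths came from GENCODE M21 on GRCm38, and promoters from RefSeq on GRCm38.p6, which matched 9 of 10 members.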

Additional observations from a re-analysis of the deposited data

Results flagged for a closer look

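A library far from the other 3 of its sex was found for 7 of 78 sets of 4 values, where chance gives about 1 in 20. Irs1 in the male of litter 4 stood at 54.6 CPM, against 71.6 to 74.6 CPM in the other males. Igf2 was far below the rest in both sexes of litter 1, with 516 CPM in the male (other males 713 to 729 CPM) and 603 CPM in the female (other females 727 to 744 CPM). Socs3 stood at 13.1 CPM in the male of litter 3, against 3.66 to 5.14 CPM. Ddit4 stood at 37.8 CPM in the female of litter 3, against 20.1 to 22.4 CPM. Mural markers summed to 908 CPM in the female of litter 3, against 1405 to 1426 CPM, and epicardial markers to 30.0 CPM in the same library, against 22.2 to 23.4 CPM.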

How the results depend on the processing

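By sex, the replicate block gave 29 genes, or 44 without litter 3, instead of 6, and changed no call of a member. Leaving out 1 library at a time turned the sign of 7 uncalled sex differences, with ranges of -0.0302 to 0.31 for Igf1, -0.0784 to 0.24 for Igf1r, -0.41 to 0.0162 for Igfbp2, -0.60 to 0.85 for Igfbp3, -0.23 to 0.30 for Igfbp4, -0.39 to 0.24 for Igfbp5 and -0.53 to 0.16 for Igfbp7. Without litter 3, Igfbp2 turned to 0.14 (0.10 with the replicate block) and Igfbp4 to -0.0442 (-0.10 with it). In litter 3, uncalled differences ran from -0.53 to 0.55 for Igfbp2 and from -1.01 to 0.0173 for Igfbp5.

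Over litters, leaving out litter 3 gave 1898 genes and 5 members instead of 4427 and 8. For litter 1 it gave 977 genes instead of 1827. For litter 2 (575 genes), counts were 1249 with all genes that had a count, 345 with a mean of at least 50 counts, 365 without a sex term and 271 without litter 3. For litter 4 (1447 genes), no sex term gave 834. Testing all genes with a count gave 7 members, 3 higher and 4 lower, instead of 3 lower and 0 higher, where 8.34% of all genes were then called. Leaving out 1 library gave 359 to 1869 genes and 1 to 4 members in litter 1, 153 to 752 and 2 to 4 in litter 2, 1704 to 3791 and 2 to 9 in litter 3, and 322 to 1302 and 0 to 6 in litter 4. Pathway genes then numbered 7 to 23 higher and 3 to 7 lower in litter 3, and 0 to 4 higher and 3 to 12 lower in litter 4, where the higher count was 1 with library totals alone, 1 without a sex term and 4 without litter 3. Endothelial markers lower in litter 3 numbered 1 to 12, and 5 with DESeq2. Those higher in litter 2 numbered 5 to 12. With the longest transcript as length, levels were 7.39 for Igf1, 9.66 for Igf1r, 33.8 for Insr and 0.614 for Igfbp2. The causes were not tested. Precision is limited by 2 libraries per litter and by the low counts of Igfbp2 and Igfbp3. Leaving litter 3 out of the sex and single-litter comparisons was chosen after seeing the data.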
